A study of Arabidopsis thaliana with 54 samples.

Results

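The 9 genes described here are the Arabidopsis genes of coumarin synthesis, secretion and release, and *CYP82C3*, out of 34262 genes in the count files. Of these, 8 were chosen by their known place in the pathway: *F6'H1* (AT3G13610), *COSY* (AT1G28680), *S8H* (AT3G12900), *CYP82C4* (AT4G31940), *PDR9* (also *ABCG37*, AT3G53480), *BGLU42* (AT5G36890), *MYB72* (AT1G56160) and *MYB10* (AT3G12820). *CYP82C3* (AT4G31950) was selected on its own response to CIF2 in wild type and *cif1 cif2*, so that response is described here without a test. Earlier results of these data were known when the other 8 were chosen, so tests of those 8 were not blind to the data. Counts were available for all 9 genes in all 54 libraries.

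Catecholic coumarins are phenylpropanoids that Arabidopsis roots secrete, and they are best known for mobilising iron in alkaline soil. The hydroxylase F6'H1 acts on feruloyl-CoA and opens the branch that leads to scopoletin, a ring closure that COSY accelerates. S8H converts scopoletin to fraxetin, and the cytochrome P450 CYP82C4 converts fraxetin to sideretin. PDR9 is a plasma membrane transporter that exports coumarins, BGLU42 is a β-glucosidase that removes their sugar, and MYB72 and MYB10 are transcription factors of the iron deficiency response. CIF2 is a sulfated peptide that the stele supplies to the endodermis, where it activates the receptor kinase SGN3 and lignin deposition.

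RNA came from whole roots of 5-day-old seedlings that had spent 30, 120 or 480 min on fresh medium, either without peptide or containing CIF2 at 100 nM. The 3 genotypes were wild type (Col-0), *sgn3-3* (a T-DNA line, here *sgn3*), which lacks the receptor, and *cif1-2 cif2-2* (CRISPR alleles, here *cif1 cif2*), which lacks the endogenous peptides. All 18 combinations had 3 libraries, each from a different batch number. The labels do not say whether the 3 libraries came from separate cultures, so *P*-values measure only the spread between them, which may be technical. Shoots had been cut off. In whole roots, fewer cells of a type and less RNA per cell cannot be told apart.

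The total count on genes ranged from 21328819 to 38588050 per library (median 28866174), and values are given as counts or as CPM (counts relative to the library total, scaled with TMM factors). *SGN3* was at 29.9 ± 7.14 CPM in *sgn3* against 169 ± 57.2 CPM in wild type (SD, n = 18 libraries each). Both sets include treated libraries, and *SGN3* was higher with CIF2 in wild type (272.4 against 143.7 CPM at 120 min). Without peptide its means at 30, 120 and 480 min were 34.82, 22.95 and 29.3 CPM in *sgn3* and 118.8, 143.7 and 113.5 CPM in wild type. The transcript of AT4G34600, which encodes CIF2, was still present in *cif1 cif2* at 56.0 ± 6.93 CPM against 65.8 ± 6.28 CPM in wild type (SD, n = 18), so its level does not check those labels. The 8 root markers summed to between 361.5 and 653.9 CPM and the 4 shoot markers to between 4.253 and 24.34 CPM in all 54 libraries. The 3 *cif1 cif2* libraries titled as treated for 480 min carry treatment labels without peptide, and they were taken as treated.

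*CYP82C3* lies on chromosome 4 at 15455083 to 15457121 (TAIR10.1, plus strand), 858 bases downstream of *CYP82C4* (15451988 to 15454224), and *CYP82C2* (AT4G31970, 15462350 to 15464563), a hydroxylase of indole carbonyl nitriles, is the third gene of the cluster. The coding sequence of *CYP82C3* was identical to that of *CYP82C4* at 92.7% of 1539 aligned bases and to that of *CYP82C2* at 93.1% of 1536 aligned bases. Of the stretches of 50 bases in *CYP82C3* exons, 6.12% occurred unchanged in *CYP82C4* and 3.87% in *CYP82C2*, while none of 100 bases did. Reads that align to several of these paralogs were left out of the counts, and counts of *CYP82C3* are uncertain to that extent. Genes on the other strand overlap *MYB10* (340 of its 1306 exon bases, AT3G12810 with 785 to 1839 reads per library against 48 to 257 for *MYB10*) and *F6'H1* (67 exon bases, AT3G13620 with 206 to 366 reads against at least 3407). Whether counting used the strand is not given in the sources used here, so *MYB10* in particular is uncertain.

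The 250 bases upstream of the annotated start are shown for the *CYP82C* cluster and for *F6'H1*. *CYP82C3* and *F6'H1* had higher counts with CIF2 in wild type and *cif1 cif2*, while *CYP82C4* did not pass the test for CIF2. *CYP82C2* completes the cluster, and the 4 differ in the number of W-box cores. The sequences are from RefSeq (TAIR10.1), and capitals mark the W-box core TTGAC, or GTCAA where it lies on the other strand.
*CYP82C3*, chr4:15454833-15455082, plus strand: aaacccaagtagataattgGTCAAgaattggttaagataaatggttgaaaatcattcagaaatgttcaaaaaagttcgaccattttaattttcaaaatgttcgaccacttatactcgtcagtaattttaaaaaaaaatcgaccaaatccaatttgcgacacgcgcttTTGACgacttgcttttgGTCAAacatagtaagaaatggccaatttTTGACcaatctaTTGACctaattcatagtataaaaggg
*CYP82C4*, chr4:15451738-15451987, plus strand: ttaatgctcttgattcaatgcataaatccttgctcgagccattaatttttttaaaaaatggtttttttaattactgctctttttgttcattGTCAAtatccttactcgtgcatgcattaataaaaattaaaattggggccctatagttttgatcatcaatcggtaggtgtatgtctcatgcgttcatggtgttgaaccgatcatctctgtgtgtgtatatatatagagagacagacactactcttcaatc
*CYP82C2*, chr4:15462100-15462349, plus strand: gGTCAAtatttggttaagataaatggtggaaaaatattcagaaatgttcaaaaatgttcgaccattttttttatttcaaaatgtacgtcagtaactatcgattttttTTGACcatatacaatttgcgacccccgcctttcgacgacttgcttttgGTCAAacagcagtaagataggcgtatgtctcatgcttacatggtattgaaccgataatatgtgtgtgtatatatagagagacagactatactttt
*F6'H1*, chr3:4449009-4449258, plus strand: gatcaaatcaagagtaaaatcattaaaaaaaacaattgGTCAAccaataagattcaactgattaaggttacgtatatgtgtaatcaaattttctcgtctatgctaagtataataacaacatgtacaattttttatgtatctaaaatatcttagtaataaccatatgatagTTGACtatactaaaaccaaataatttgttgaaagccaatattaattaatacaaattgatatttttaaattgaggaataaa

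The W-box core is the element that WRKY transcription factors bind. Counting from 250 bases before to 50 bases after the start on both strands, *CYP82C3* held 5 cores, and 0.197% of 27443 promoters of protein-coding genes held 5 or more. *CYP82C2* held 3 (3 or more in 4.86% of promoters) and *F6'H1* 2 (2 or more in 17.7%). *CYP82C4*, *COSY*, *MYB10* and *PDR9* held 1 each (1 or more in 50.5% of promoters), and *S8H*, *MYB72* and *BGLU42* held 0. The G-box CACGTG was in 0 of these 9 promoters and in 7.7% of all promoters. These are matches of letters and do not show binding.

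The 9 genes differed widely in level. Per kilobase of exon, *PDR9* was at 122 ± 10.05 CPM, *COSY* at 107 ± 0.461 CPM and *F6'H1* at 104 ± 5.41 CPM in untreated wild type at 30 min (SD, n = 3). The intervals of *COSY* and *F6'H1* overlapped, and both were lower than *PDR9* by more than 1 SD. *CYP82C4* followed at 30.0 ± 14.9, *BGLU42* at 10.4 ± 0.873 and *MYB10* at 2.47 ± 0.731 CPM per kilobase (SD, n = 3). *MYB72* (0.173 ± 0.0831 CPM per kilobase), *S8H* (0.14 ± 0.145) and *CYP82C3* (0.0165 ± 0.0145) were close to the detection limit, and *S8H* could not be ordered against either of the other two (SD, n = 3). At least 1 CPM (before TMM scaling) was reached in all 54 libraries by 6 of the 9 genes, but in 11 libraries from 4 groups by *CYP82C3*, in 3 libraries by *S8H* and in 2 by *MYB72*. All 9 genes passed the filter of 1 CPM in at least 1 library, *CYP82C3* only through the CIF2-treated groups in which it was high, *S8H* only through wild-type libraries at 480 min and *MYB72* only through libraries at 480 min. A member that enters the fit through the group in which it is high is favoured to differ there, so calls of *S8H* and *MYB72* that involve 480 min are also given without the filter.

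*CYP82C3* was nearly silent in untreated roots and was detected within 30 min of CIF2 in wild type. The 3 wild-type libraries without peptide had 1, 0 and 1 reads at 30 min, and those with CIF2 had 61, 66 and 30 reads. At 120 min the counts were 0, 0 and 0 without peptide and 35, 42 and 21 with CIF2. At 480 min they were 0, 1 and 3 without peptide and 4, 6 and 2 with CIF2. Thus the groups did not overlap at 30 and 120 min and overlapped at 480 min.

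Expressed per depth, the CIF2 libraries of wild type were 66.4-fold higher at 30 min (95% exact counting interval 18.1 to 553), at least 11.1-fold higher at 120 min against a floor of 3 counts per library, and 2.74-fold higher at 480 min (0.83 to 11.7). Intervals cover counting error only and are no test of a response that chose the gene. Without the libraries of batch 1, 2 or 3 in turn, the ratio at 30 min was 89.7, 38.4 and 97.7, and that at 480 min was 1.71, 1.85 and 9.67. The levels at 480 min therefore rest on few reads.

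The *cif1 cif2* mutant showed a similar series. Its libraries had 1, 2 and 1 reads without peptide and 47, 59 and 36 reads with CIF2 at 30 min (38.3-fold, 14.6 to 143). At 120 min they had 0, 0 and 0 reads without and 50, 41 and 24 reads with CIF2, which is at least 14.6-fold. At 480 min the counts were 0, 1 and 0 against 3, 4 and 3 (9.5-fold, 1.35 to 412), and the ratio was 7.46 without batch 1 and 5.97 without batch 3. The groups did not overlap at any of the 3 times. At 480 min, however, no library had more than 4 reads, close to the floor of 3 counts, so that difference rests on few reads. The treated 480 min libraries are also those with conflicting labels.

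In *sgn3* the gene stayed at background. With CIF2 its libraries had 1, 1 and 0 reads after 30 min, 2, 1 and 0 after 120 min, and 1, 0 and 0 after 480 min. Without peptide they were 3, 1 and 0, then 1, 3 and 0, then 0, 0 and 0. The ratio was 0.537 at 30 min (0.0486 to 3.75) and 0.698 at 120 min (0.102 to 4.13). The adjusted *P*-values in *sgn3* were 0.869, 1 and 0.958 for the 3 times in order (edgeR's quasi-likelihood test, Benjamini-Hochberg adjustment). *CYP82C3* entered this test only because treated libraries of the other genotypes passed the filter. The neighbour *CYP82C2* had a median of 2 reads per library and at most 14, and it fell below the filter.

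**Figure D1:**
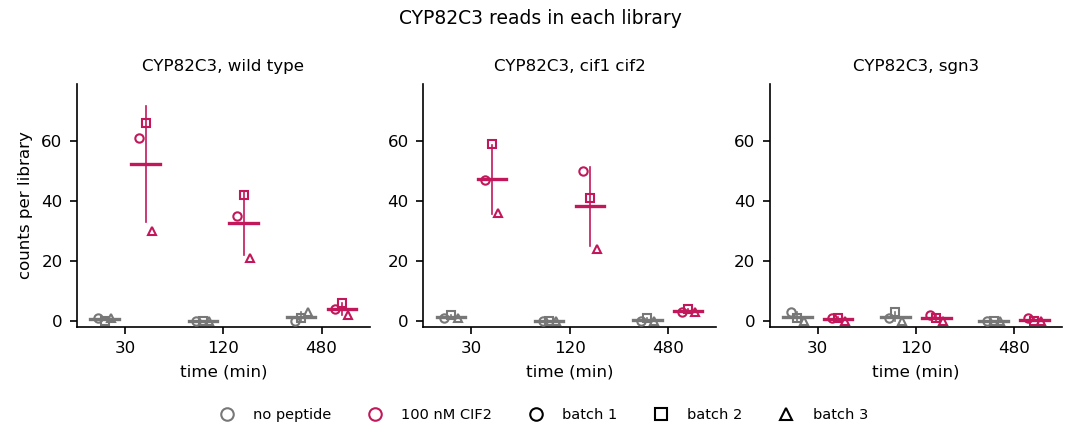
Reads of *CYP82C3* in each library (y axis, counts) by time (x axis, min) in wild type, *cif1 cif2* and *sgn3*, grey without peptide and red with 100 nM CIF2. Symbols give the batch, horizontal bars the mean and vertical bars the SD of 3 libraries. Treated wild-type and *cif1 cif2* libraries had 21 to 66 reads at 30 and 120 min, while no *sgn3* library had more than 3.

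The genes whose group means were most like those of *CYP82C3* over the 18 groups were AT5G52670 (Pearson's r of log2 CPM 0.969), AT5G67340 (0.95), AT5G43068 (0.95), AT1G66480 (0.945) and AT3G15518 (0.938). Group means of AT5G52670 ranged from 0.0726 to 7.65 CPM, against 0 to 1.71 CPM for *CYP82C3*, whereas AT5G67340 ranged from 17.8 to 91.6 CPM. These coefficients are descriptions over 18 means that share batches.

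Of the coumarin genes proper, *F6'H1* had the largest change with CIF2 that passed the test. In wild type at 30 min, its libraries had 152, 162 and 146 CPM without peptide and 201, 202 and 188 CPM with CIF2. At 120 min they had 304, 283 and 223 CPM without and 496, 513 and 431 CPM with CIF2. At 480 min they had 171, 206 and 217 CPM without and 280, 309 and 385 CPM with CIF2. All treated libraries were higher than all untreated libraries of the same time.

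In wild type, *F6'H1* rose by 0.83 on the log2 scale at 120 min (SE 0.119, adjusted *P* = 1.82e-06, edgeR) and by 0.72 at 480 min (SE 0.119, adjusted *P* = 1.66e-05). At 30 min the difference of 0.37 (SE 0.12) just missed the threshold (adjusted *P* = 0.0503), although all 3 batches were higher with CIF2. In *cif1 cif2* it rose by 0.35 at 30 min (adjusted *P* = 0.0469), by 0.88 at 120 min (adjusted *P* = 3.02e-07) and by 0.69 at 480 min (adjusted *P* = 3.05e-05; SE 0.119 each). The call at 30 min was lost without batch 1 (adjusted *P* = 0.1) or batch 2 (adjusted *P* = 0.299), and without the batch block (adjusted *P* = 0.123). The mean at 120 min was 634 ± 124 CPM with CIF2 and 343 ± 30.4 CPM without in *cif1 cif2*, against 480 ± 43.5 and 270 ± 41.9 CPM in wild type (SD, n = 3).

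In *sgn3*, *F6'H1* had 305, 345 and 300 CPM without peptide and 308, 402 and 307 CPM with CIF2 at 120 min. At 480 min the libraries had 205, 222 and 243 CPM without and 215, 244 and 260 CPM with CIF2, and the groups overlapped at all 3 times. The log2 difference was 0.05 at 30 min (95% interval -0.181 to 0.287), 0.10 at 120 min (-0.137 to 0.328) and 0.10 at 480 min (-0.132 to 0.333), with adjusted *P*-values of 0.923, 1 and 0.971 in edgeR. The interval at 120 min did not reach the increase seen in wild type.

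The difference between the genotypes was tested directly. The CIF2 effect on *F6'H1* was smaller in *sgn3* than in wild type, with a log2 difference of -0.73 at 120 min (SE 0.168, adjusted *P* = 0.00594, edgeR) and of -0.62 at 480 min (SE 0.168, adjusted *P* = 0.0202), in 3 of 3 batches each. Without batch 1 the adjusted *P* was 0.0661 at 120 min and 0.169 at 480 min, and without batch 2 it was 0.0858 and 0.0956, with log2 differences of -0.61 to -0.79. Without the batch block the call at 120 min held (adjusted *P* = 0.0338) and that at 480 min did not (adjusted *P* = 0.0851). At 30 min the difference was -0.31 (adjusted *P* = 0.519). Between *cif1 cif2* and wild type the effects on *F6'H1* differed by -0.02, 0.05 and -0.03 at 30, 120 and 480 min, with 95% intervals within -0.358 and 0.381 (adjusted *P* of 0.994, 0.981 and 1).

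*COSY*, which acts after F6'H1, changed less. In wild type at 120 min its libraries had 137, 122 and 127 CPM without peptide and 157, 157 and 142 CPM with CIF2. In *cif1 cif2* they had 141, 138 and 146 CPM without and 177, 175 and 168 CPM with CIF2, and in *sgn3* 150, 126 and 141 CPM without and 134, 133 and 133 CPM with CIF2. The treated group was higher without overlap in wild type and *cif1 cif2*, and the groups overlapped in *sgn3*.

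At 120 min, *COSY* rose by 0.24 on the log2 scale in wild type (SE 0.0594, adjusted *P* = 0.0047, edgeR) and by 0.29 in *cif1 cif2* (SE 0.0594, adjusted *P* = 0.000378). Without batch 2 these adjusted *P*-values were 0.25 and 0.0579. In *sgn3* the difference was -0.06 (adjusted *P* = 1), and the effect differed from that in wild type by -0.30 (SE 0.084, adjusted *P* = 0.0369, 3 of 3 batches). This last call was lost without the batch block (adjusted *P* = 0.0681) and without batch 1, 2 or 3 (adjusted *P* of 0.243, 0.311 and 0.123). At 30 and 480 min no genotype passed for *COSY*, with adjusted *P*-values of 0.559 and more. An annotated antisense transcript covers 1204 of the 1630 exon bases of *COSY*, but it had only 20 to 48 reads per library against 3050 to 6529 for *COSY*.

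**Figure D2:**
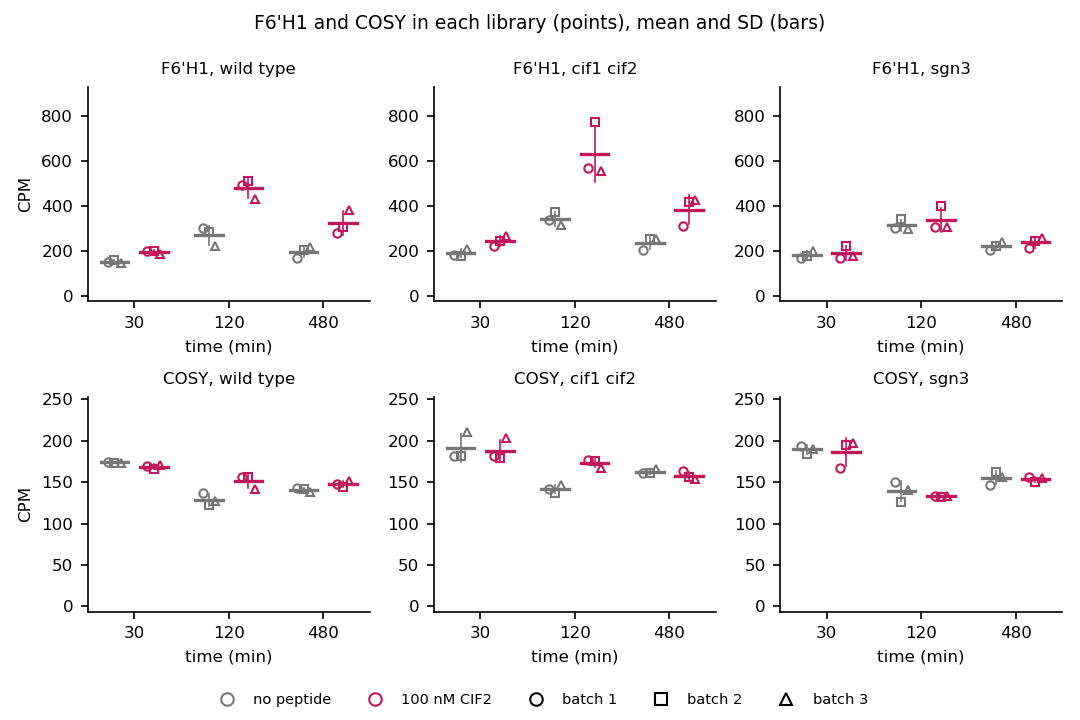
CPM of *F6'H1* (top) and *COSY* (bottom) in each library by time (min), grey without peptide and red with 100 nM CIF2, with the mean and SD of 3 libraries as bars and the batch as symbol. With CIF2 at 120 min, *F6'H1* was at 431 to 513 CPM in wild type and at 556 to 777 CPM in *cif1 cif2*, above all untreated libraries of those genotypes, while in *sgn3* the groups overlapped.

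No CIF2 effect passed the test for the enzymes after scopoletin or for the transporter. *PDR9*, *BGLU42*, *MYB10*, *CYP82C4* and *S8H* passed the test for CIF2 in none of the 9 comparisons of treated with untreated roots. *S8H* had 0 to 39 reads per library, so small changes in it could not be seen. In wild type at 30 min *CYP82C4* had 24.95, 65.9 and 78.7 CPM without peptide and 35.8, 106 and 106 CPM with CIF2. It was higher with CIF2 in each batch there, and the groups overlapped. For *PDR9* the log2 differences lay between -0.20 (*cif1 cif2*, 480 min, adjusted *P* = 0.279) and 0.06, with an SE of 0.106. Those of *BGLU42* lay between -0.13 and 0.14. *CYP82C4* was lower with CIF2 in *cif1 cif2* at 480 min, with 7.33, 13.5 and 31.0 CPM without peptide and 6.32, 5.25 and 7.51 CPM with CIF2. That difference of -1.29 (SE 0.538) did not pass (adjusted *P* = 0.135), the groups overlapped, and it was called only when the *cif1 cif2* libraries were fitted alone (-1.34, adjusted *P* = 0.0209).

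Of the regulators, *MYB72* passed for CIF2 in wild type at 480 min and *MYB10* in no comparison. There, the *MYB72* libraries had 19, 24 and 51 reads without peptide (0.639, 0.939 and 1.81 CPM) and 10, 18 and 34 reads with CIF2 (0.351, 0.628 and 0.991 CPM). It fell by 0.78 on the log2 scale (SE 0.248, adjusted *P* = 0.0338, edgeR), lower in 3 of 3 batches, though the groups overlapped. The call was lost without the batch block (adjusted *P* = 0.474), without batch 1 or 2 (0.231 and 0.0588), in limma-trend (0.273), in DESeq2 (0.227) and without the filter (0.0961). An annotated antisense transcript covers 765 of the 1034 exon bases of *MYB72* and had 0 to 14 reads per library. These low counts of *MYB72* are thus uncertain if counting ignored the strand.

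Over all comparisons of CIF2 with no peptide, 75 tests of the 9 genes were made, which leave out *CYP82C3* in wild type and *cif1 cif2*. A call required an adjusted *P* of at most 0.05 and a change by at least 1 on the log2 scale in either direction. None of the 75 was called in edgeR, limma-trend or DESeq2, and 12 had an unadjusted *P* below 0.05 in edgeR. Among all 19668 genes tested, 3681, 4255 and 4116 did in wild type at 30, 120 and 480 min. In *cif1 cif2* 4321, 4991 and 4214 did, and in *sgn3* 1401, 578 and 1017. Of all 19668 genes tested, 1.17, 1.48 and 2.29% were called in wild type for 30, 120 and 480 min, 1.86, 2.1 and 2.47% in *cif1 cif2*, and 0.0254, 0 and 0% in *sgn3*. By the adjusted *P* alone 8 of the 75 tests passed: 5 for *F6'H1*, 2 for *COSY* and 1 for *MYB72*. The share of all genes was then 7.78, 10.6 and 10.1% in wild type, 11.6, 13.7 and 10.9% in *cif1 cif2*, and 0.0305, 0 and 0% in *sgn3*. In *sgn3*, 0 of 27 tests of the members passed in edgeR, limma-trend or DESeq2, and 1 had an unadjusted *P* below 0.05 in each. These 27 include 3 of *CYP82C3*, which entered through other groups. The 0% of all genes at 120 and 480 min in *sgn3* also held in limma-trend and DESeq2, with 578 and 1017 genes at an unadjusted *P* below 0.05 in edgeR, 593 and 983 in limma-trend, and 495 and 953 in DESeq2.

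**Figure D3:**
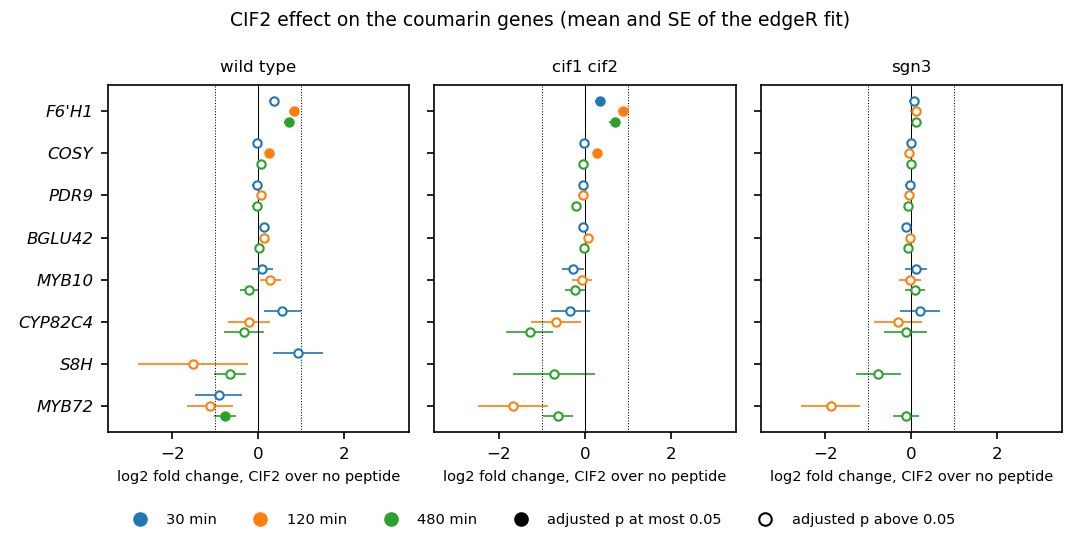
Log2 fold change of CIF2 over no peptide (x axis) with the SE of the edgeR fit for 8 genes (y axis) in 3 genotypes. Colours give the time, filled points an adjusted *P* of at most 0.05, and dotted lines a log2 change of 1 in size. Genes with at most 3 reads in every library of both groups are left out. Filled points are *F6'H1* and *COSY* to the right and *MYB72* to the left of 0, and *sgn3* has none.

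For the difference of the CIF2 effect between a mutant and wild type, 3 of 48 tests passed, all in *sgn3*. Among all genes 1.89, 3.2 and 4.52% passed for *sgn3* (30, 120 and 480 min), and 0.0153, 0.29 and 0.00508% for *cif1 cif2*.

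Group means of *F6'H1* were most like those of AT4G01700 (Pearson's r 0.974 over 18 groups), AT4G25070 (0.969), *Prx37* (0.961), *BIA1* (0.96) and AT5G64120 (0.959). *S8H* was most like *FRO2* (0.915), the ferric chelate reductase of the root, then *BHLH100* (0.885), *LUT1* (0.883), *MTPA2* (0.881) and *GATA15* (0.881). The closest to *CYP82C4* were AT1G73120 (0.923), *BHLH32* (0.921), AT1G67300 (0.903), *PLC4* (0.895) and AT5G40340 (0.893). *F6'H1* and *CYP82C3* had no gene in common among these.

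Untreated mutants and wild type differed at 480 min in *S8H* (*cif1 cif2*) and, less stably, in *MYB72* (both mutants). *S8H* had 36, 20 and 39 reads in wild type, 2, 4 and 4 reads in *cif1 cif2* and 10, 8 and 21 reads in *sgn3*. This corresponds to 1.12 ± 0.309, 0.119 ± 0.0359 and 0.447 ± 0.315 CPM (SD, n = 3). The *cif1 cif2* libraries lay below all wild-type libraries, and those of *sgn3* overlapped with wild type.

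*S8H* fell by 3.22 on the log2 scale in *cif1 cif2* (SE 0.534, adjusted *P* = 0.00168, edgeR). It was lower in 3 of 3 batches, but the call was lost without batch 1, 2 or 3 (adjusted *P* of 0.0533, 0.148 and 0.0704). Without the filter on low counts it held (adjusted *P* = 0.00318). In *sgn3* the log2 difference was -1.40 (SE 0.402) and did not pass (adjusted *P* = 0.188). *MYB72* had 19, 24 and 51 reads in wild type, 5, 10 and 26 in *cif1 cif2* and 7, 11 and 25 in *sgn3*, and the groups overlapped. It fell by 1.25 in *cif1 cif2* (SE 0.267, adjusted *P* = 0.0242) and by 1.25 in *sgn3* (SE 0.262, adjusted *P* = 0.0318), lower in 3 of 3 batches. Neither *MYB72* call held without the batch block (adjusted *P* of 0.606 and 0.876), without batch 1 or 2 (0.202 to 0.416), in limma-trend (0.16 and 0.216), in DESeq2 (0.119 and 0.161), or without the filter (0.0683 and 0.0919).

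*MYB10* had log2 differences of -0.81 and -0.91 in the same comparisons without passing (adjusted *P* of 0.113 and 0.0995, edgeR). Thus 3 of 54 tests of untreated mutants against wild type were called. All were of *S8H* and *MYB72* at 480 min, the time through which these genes passed the filter. Only the *S8H* call held without the filter. An unadjusted *P* below 0.05 (edgeR) was reached in 24 of the 54. Among all 19668 genes tested, 2261, 3682 and 2396 reached it in *cif1 cif2* at 30, 120 and 480 min. In *sgn3* 2652, 969 and 2015 did. Of all genes, 0.0915, 0.0814 and 0.0559% were called in *cif1 cif2* (30, 120 and 480 min), and 0.0508, 0.0508 and 0.0559% in *sgn3*. *F6'H1* and *COSY* were not called. In *cif1 cif2* at 30 min, *F6'H1* differed from wild type by 0.33 (adjusted *P* = 0.236).

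The batch moved with these genes. *MYB72* was highest in batch 3 in 15 of 18 groups and *CYP82C4* in 12 of 18, and *CYP82C4* averaged 13.4 CPM in batch 1, 24.1 in batch 2 and 32.9 in batch 3. In untreated wild type at 480 min, *CYP82C4* had 11.3, 16.3 and 61.1 CPM in batches 1, 2 and 3. By comparison, *F6'H1* averaged 267, 308 and 284 CPM and *COSY* 160, 158 and 163 CPM in the batches. Each batch held every group, so that the batch does not coincide with genotype or peptide.

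The time without peptide separated the genes further. Time after transfer to fresh medium and time of day cannot be told apart. *CYP82C4* had 24.95, 65.9 and 78.7 CPM in untreated wild type at 30 min and 6.40, 7.57 and 43.4 CPM at 120 min. In *cif1 cif2* the values were 21.6, 36.5 and 39.1 CPM and then 12.3, 5.36 and 10.8 CPM. In *sgn3* they were 11.8, 43.0 and 23.8 CPM and then 13.5, 2.52 and 10.8 CPM. The groups overlapped in wild type and *sgn3* and did not overlap in *cif1 cif2*.

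From 30 to 120 min, *CYP82C4* fell by 1.69 on the log2 scale in wild type (SE 0.462, adjusted *P* = 0.00402, edgeR), by 1.71 in *cif1 cif2* (SE 0.498, adjusted *P* = 0.00647) and by 1.53 in *sgn3* (SE 0.514, adjusted *P* = 0.0209). Without batch 2 the log2 changes were -1.15, -1.28 and -0.45 (adjusted *P* of 0.104, 0.0762 and 0.636). Without batch 3 that of *sgn3* had an adjusted *P* of 0.0609, and without the batch block the wild-type and *sgn3* calls were lost (0.0705 and 0.0991).

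*MYB72* rose by 480 min in all 3 genotypes. *MYB72* had 2, 5 and 7 reads at 30 min and 19, 24 and 51 reads at 480 min in untreated wild type. In *cif1 cif2* it had 2, 3 and 1 and then 5, 10 and 26 reads, and in *sgn3* 1, 2 and 3 and then 7, 11 and 25 reads. The groups did not overlap in any genotype. *MYB72* rose by 2.63 on the log2 scale in wild type (SE 0.333, adjusted *P* = 1.89e-08, edgeR), by 2.71 in *cif1 cif2* (SE 0.462, adjusted *P* = 9.47e-06) and by 2.71 in *sgn3* (SE 0.458, adjusted *P* = 7.87e-06). Without the filter the adjusted *P*-values were 1.19e-07, 2.8e-05 and 2.13e-05.

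*S8H* had 0, 5 and 11 reads at 30 min and 36, 20 and 39 reads at 480 min in untreated wild type. It rose by 2.45 (SE 0.487, adjusted *P* = 7.23e-05, edgeR) in wild type and by 2.84 in *sgn3* (SE 0.732, adjusted *P* = 0.00215), where the counts were 2, 2 and 1 and then 10, 8 and 21. The *sgn3* call was lost without batch 3 (2.01, adjusted *P* = 0.0977). Without the filter both held (adjusted *P* of 0.000185 in wild type and 0.00334 in *sgn3*). In *cif1 cif2* the counts were 1, 1 and 2 and then 2, 4 and 4, and the difference of 1.31 (SE 1.03) did not pass (adjusted *P* = 0.371).

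*MYB10* rose by 1.06 in wild type (SE 0.227, adjusted *P* = 0.000206, edgeR), from 2.13, 3.90 and 3.65 CPM at 30 min to 4.17, 7.71 and 8.61 CPM at 480 min. In *sgn3* it rose by 0.62 (adjusted *P* = 0.0475), a call lost without batch 2 (0.0879) or batch 3 (0.437), without the batch block (0.09) and without the filter (0.0609), and in *cif1 cif2* the difference of 0.41 did not pass (adjusted *P* = 0.209). Differences between genotypes in these changes over time were not tested.

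**Figure D4:**
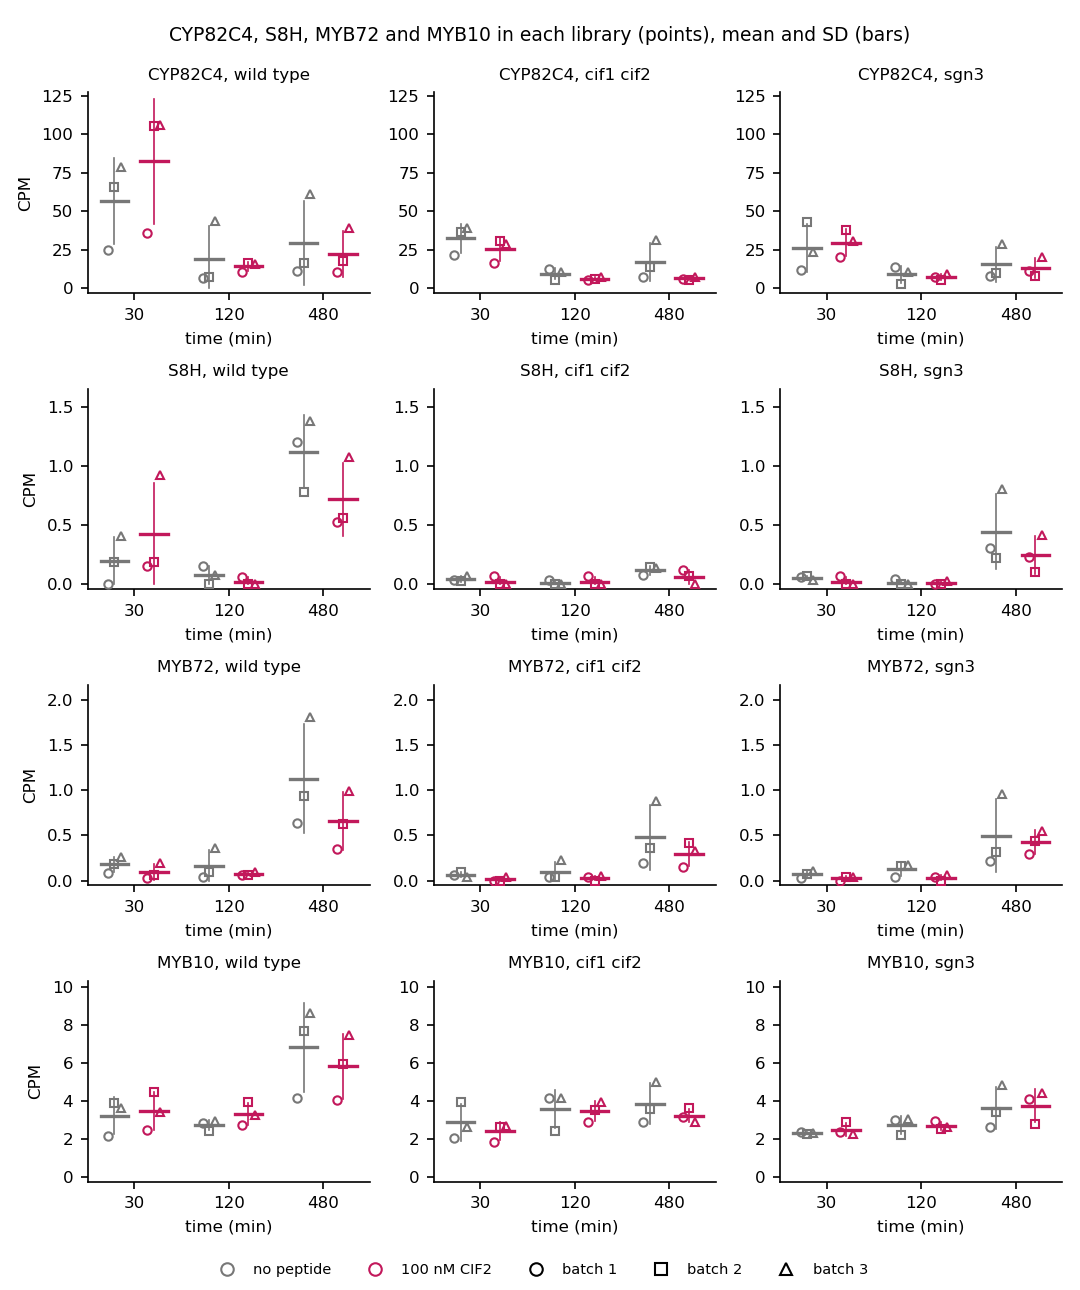
CPM of *CYP82C4*, *S8H*, *MYB72* and *MYB10* in each library by time (min) in 3 genotypes, grey without peptide and red with 100 nM CIF2, with the mean and SD of 3 libraries as bars and the batch as symbol. *MYB72* was highest in batch 3 in 15 of 18 groups, and *S8H* at 480 min was at 0.782 to 1.38 CPM in untreated wild type against 0.0776 to 0.144 CPM in *cif1 cif2*.

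*F6'H1* and *PDR9* rose and *COSY* fell from 30 to 120 min in all 3 genotypes without peptide. *F6'H1* rose by 0.82, 0.83 and 0.79 on the log2 scale in wild type, *cif1 cif2* and *sgn3* (SE 0.12 each, adjusted *P* of 4.58e-07, 3.53e-07 and 1.21e-06, edgeR). *PDR9* rose by 0.67, 0.73 and 0.68 (SE 0.107, adjusted *P* of 2.42e-06, 4.74e-07 and 2.18e-06), from 622, 560 and 529 to 992, 869 and 864 CPM in wild type. *COSY* fell by 0.43, 0.43 and 0.45 (adjusted *P* of 1.28e-07, 1.68e-07 and 7.05e-08). In wild type the increase of *F6'H1* over time (0.82) was thus as large as that with CIF2 at 120 min (0.83), and these comparisons share the untreated libraries at 120 min.

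Of 54 tests over time without peptide, 9 passed the cut-off in edgeR: *CYP82C4* at 120 min in 3 genotypes, *MYB72* at 480 min in 3, *S8H* in 2 and *MYB10* in 1. The share of all genes was 5.46% in wild type, 5.13% in *cif1 cif2* and 5.21% in *sgn3* at 120 min, and 7.11, 5.43 and 5.78% at 480 min. By the adjusted *P* alone 27 of 54 passed, where the share of all genes was 30.3, 32 and 27.8% at 120 min and 44.5, 29.9 and 32.9% at 480 min.

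Several genes of the route from phenylalanine to feruloyl-CoA rose with CIF2, most of them at 480 min, and their part in coumarin synthesis was not tested. Of 14 genes from phenylalanine to feruloyl-CoA, 13 were tested, and 5 rose and 0 fell by the adjusted *P* alone at 120 min in wild type. At 480 min 8 rose and 0 fell, with a median log2 change of 0.263 against -0.0136 over all genes. In *cif1 cif2*, 5 rose at 120 min, and at 480 min 7 rose and 1 fell. Among all 19668 genes, 1239 rose and 841 fell at 120 min in wild type, and 1353 rose and 636 fell at 480 min. In *cif1 cif2* 1463 rose and 1225 fell at 120 min, and 1368 rose and 772 fell at 480 min. The only gene of this list that was called was *PAL4*, a phenylalanine ammonia-lyase, which rose by 1.22 (SE 0.112, adjusted *P* = 2.06e-11, edgeR) in wild type at 480 min, from 89.8 to 211 CPM, and by 1.08 (SE 0.112, adjusted *P* = 4.07e-10) in *cif1 cif2*. At 30 min 1 rose and 2 fell in wild type, and 2 rose in *cif1 cif2*. In *sgn3*, 0 of 13 passed at any time in edgeR. The CIF2 effect was smaller in *sgn3* than in wild type for 2 of the 13 at 120 min and for 6 at 480 min, where *PAL4* differed by -1.25 (SE 0.157, adjusted *P* = 2.07e-07).

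Genes of the iron response changed in part. Of 20 such genes 19 were tested. With CIF2 in wild type, 0 were called, and by the adjusted *P* alone 0 passed at 30 min, 1 rose at 120 min and 3 fell at 480 min. In *cif1 cif2* 4 fell past the cut-off at 30 min and 1 at 480 min. Among all 19668 genes tested, 10 and 70 fell past it at these times. The 4 at 30 min were *BHLH38*, *BHLH39*, *BHLH100* and *BHLH101*, named here after their values were seen, and *S8H* and *MYB72* did not pass in that comparison. The largest falls were those of *BHLH100* (from 2.96 to 0.997 CPM, log2 change -1.60, SE 0.545, adjusted *P* = 0.047, edgeR) at 30 min and of *BHLH38* (from 18.1 to 7.13 CPM, -1.29, SE 0.386, adjusted *P* = 0.0209) at 480 min, both iron deficiency transcription factors. In *sgn3* 0 passed. When the difference was tested directly in edgeR, the CIF2 effect differed from wild type for 0 of the 19 genes in *cif1 cif2* and in *sgn3* at each time. The calls of these genes were not checked with limma-trend, DESeq2 or a batch left out.

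Over time without peptide, 8, 5 and 8 of these 19 genes rose past the cut-off from 30 to 480 min in wild type, *cif1 cif2* and *sgn3*, and 0 fell. Among all 19668 genes tested, 401, 316 and 319 rose and 998, 751 and 818 fell past it. The largest increase was that of *IMA1* in wild type (from 0.387 to 3.51 CPM, log2 change 3.18, SE 0.538, adjusted *P* = 5.63e-06, edgeR) and of *IMA2* in *cif1 cif2* (1.90) and *sgn3* (2.21), which encode small peptides of the iron response. The median log2 change of the 19 genes was 0.682, 0.587 and 0.721, against 0.0237, -0.000101 and -0.00343 over all genes. From 30 to 120 min 3 rose past the cut-off in each genotype, and 3 fell in wild type. Among all genes 405, 555 and 458 rose past it in wild type, *cif1 cif2* and *sgn3*, and 669 fell in wild type. The largest fall was that of *IRT1*, the iron transporter, by 1.36 (SE 0.415, adjusted *P* = 0.00982).

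The indole carbonyl nitrile branch, which uses CYP82C2, had 6 of 7 genes tested. With CIF2 1 gene was called at 480 min in wild type and 1 at each time in *cif1 cif2*. Of all genes, 2.29% were called at 480 min in wild type, and 1.86, 2.1 and 2.47% at 30, 120 and 480 min in *cif1 cif2*. *CYP71A12*, a cytochrome P450, rose by 1.06 (SE 0.347, adjusted *P* = 0.0419, edgeR) in wild type at 480 min, from 1.97 to 3.86 CPM, and by 1.30 (adjusted *P* = 0.0189) in *cif1 cif2*. *FOX1*, an oxidase of the branch, rose in *cif1 cif2* by 1.54 at 30 min (adjusted *P* = 0.00579) and by 1.63 at 120 min (adjusted *P* = 0.00719). In *sgn3* 0 of 6 passed. Of the side routes, namely *F6'H2*, 3 β-glucosidases of the scopolin type and *CYP82C2*, 4 of 5 were tested and 0 passed in any comparison of CIF2 with no peptide.

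Of the 4 shoot markers, 1 moved with the peptide. *CAB1*, a chlorophyll-binding protein gene, fell with CIF2 at 480 min in wild type, from 7.49 to 2.29 CPM (log2 change -1.70, SE 0.271, adjusted *P* = 7.21e-06, edgeR), and at 120 and 480 min in *cif1 cif2* (-1.12 and -1.42). The sum of the 4 markers ranged from 13.5 to 16.0 CPM without and from 5.37 to 7.55 CPM with CIF2 in wild type at 480 min, and from 8.77 to 15.2 and from 4.25 to 7.27 CPM in *cif1 cif2*. In *sgn3* at 480 min it ranged from 10.7 to 13.5 CPM without and from 10.6 to 15.1 CPM with CIF2. *F6'H1* rose in these groups of wild type and *cif1 cif2*, and a link to the shoot markers was not tested.

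Of the 8 root markers, 1 rose and 1 fell with CIF2 at 480 min in both wild type and *cif1 cif2*, and 0 passed in *sgn3* at any time in edgeR. Among all genes, 1353 rose and 636 fell by the adjusted *P* alone at 480 min in wild type. In *cif1 cif2* 1368 rose and 772 fell. *CASP1*, a Casparian strip protein gene, rose by 0.60 in wild type (from 191 to 288 CPM, SE 0.121, adjusted *P* = 0.000342) and by 0.93 in *cif1 cif2* (from 176 to 335 CPM, SE 0.121, adjusted *P* = 1.15e-07). *SCR*, a transcription factor gene of the endodermis, fell by 0.44 in wild type (adjusted *P* = 1.37e-07) and by 0.38 in *cif1 cif2* (adjusted *P* = 3.45e-06). At 120 min *SCR* fell in both genotypes (by 0.19 and 0.17), and in *cif1 cif2* *CASP1* (0.70) and *SHR* (0.23) rose. At 30 min *SCR* fell in wild type (by 0.21). These root markers are named here after their values were seen. The sum of the 8 ranged from 384.4 to 455.4 CPM without and from 461.2 to 548.7 CPM with CIF2 in wild type at 480 min, and from 405.3 to 490.4 and from 513.1 to 653.9 CPM in *cif1 cif2*. In *sgn3* the ranges were 361.5 to 468.4 and 369.9 to 430.6 CPM. The part of shoot tissue or of root cell types in the results for *F6'H1* and *COSY* was not tested.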

How the data were processed

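The authors deposited 1 table of raw counts of reads per gene for each of 54 libraries. Per the labels and the study's methods, stranded mRNA libraries were trimmed with Cutadapt 1.8, aligned to TAIR10 with STAR 2.5.3a and counted with htseq-count 0.9.1. Its strand option is not given in the sources used here. Reads aligned to several places (3.61 to 3.96% of each library) were not counted, and 5 summary rows were left out.

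Of 34262 genes, 19668 with 1 CPM in at least 1 library were tested in R 4.3.3 with edgeR 4.0.16 (TMM factors, prior count 2, quasi-likelihood test with Benjamini-Hochberg adjustment over all genes per comparison). The fit held 18 groups and the batch as a block. Batch numbers are in the sample titles, and deviations of same-batch libraries from their group means correlated at 0.27 on average (459 pairs). The value between batches, -0.135 (918 pairs), is no separate evidence, since the deviations within each group sum to 0. Within groups, chi-square per degree of freedom was 5.3 to 40.1 over 54 pairs, so no pair agreed within counting noise. Called means an adjusted *P* of at most 0.05 and a log2 change of at least 1 in size, and the adjusted *P* alone for differences between genotypes. Depth allows a floor of 3 counts per library.

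Alternatives were limma-trend (3.58.1), DESeq2 (1.42.0), its size factors, other filters and thresholds, no batch block, only the genotypes compared, each batch left out, and the 3 libraries with conflicting treatment labels left out. The count tables hold gene identifiers only, so coordinates and sequences are those of RefSeq TAIR10.1, read with Python 3.11.15 and Biopython 1.88, and figures used matplotlib 3.10.9. Members and gene lists were chosen with earlier results of these data known. Beside the 9 members, the text names the called gene with the largest change in each direction per list and comparison where it bears on the members, the 5 genes most alike to *CYP82C3*, *F6'H1*, *S8H* and *CYP82C4*, *CYP82C2*, *SGN3* and AT4G34600. The scripts were tested on simulated data.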

Additional observations from a re-analysis of the deposited data

Results flagged for a closer look

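In 3 results the CIF2 effect differed between *sgn3* and wild type by a direct test of that difference in edgeR. *F6'H1* differed by -0.73 on the log2 scale at 120 min (adjusted *P* = 0.00594) and by -0.62 at 480 min (adjusted *P* = 0.0202). *COSY* differed by -0.30 at 120 min (adjusted *P* = 0.0369). Each was lower in 3 of 3 batches.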

How the results depend on the processing

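None of the 41 member results past the adjusted *P* changed direction under the alternatives named here. For CIF2 against no peptide, 0 calls became 1 when only the genotypes compared were fitted (*CYP82C4* in *cif1 cif2* at 480 min) and 8 without the fold change threshold. For the effect in a mutant against wild type, 3 calls became 1 without the replicate block, 1 at an adjusted *P* of at most 0.01, 0 with a fold change threshold added, and 0 to 2 when leaving out each batch. For untreated mutants, 3 calls became 1 (*S8H* in *cif1 cif2* at 480 min) with limma-trend, DESeq2, no low-count filter, 1 CPM in 3 libraries, no replicate block or an adjusted *P* of at most 0.01, and 0 when leaving out any batch. With 1 CPM in 3 libraries and without batch 3, *MYB72* fell below the filter, so its calls were not tested there. Over time, 9 calls became 27 without the fold change threshold and 4 to 10 when leaving out each batch, with 4 without batch 3, where *MYB72* was not tested. The *CYP82C3* ratio with CIF2 ranged from 38.4 to 97.7 in wild type at 30 min, 1.71 to 9.67 at 480 min and 5.97 to 7.46 in *cif1 cif2* at 480 min when leaving out each batch, and without batch 2 the last had no untreated read and no ratio. Of these 41, 38 stayed past it with DESeq2, 38 with limma-trend, 29 without the replicate block, 36 without the low-count filter, and 31 and 24 without batch 1 and 2. Without batch 3, 25 of 35 did, since *MYB72* then fell below the filter. Without the libraries with conflicting labels, 40 of 40 did. *CYP82C3*, *S8H* and *MYB72* rest on few reads, and small changes in them could not be detected at this depth.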
